A study of Homo sapiens with 2 samples.

Results

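The aminoacyl-tRNA synthetases and the scaffold proteins that hold some of them together were compared between a human breast cell line transfected against YBX1 and the same line transfected with a control. Members were the genes whose symbol is a single capital letter followed by ARS, ARS1 or ARS2, to which EPRS, FARSA, FARSB, AIMP1, AIMP2 and EEF1E1 were added. This rule uses names only and found 40 of the 13219 genes listed in at least 1 library. The 40 comprised 20 cytosolic synthetases, 17 mitochondrial synthetases, whose symbols end in 2, and 3 scaffolds. All 40 were listed in both libraries, and all 40 passed the filter of a mean of at least 1 FPKM. The siYBX1 group was treated to knock down YBX1, by what the treatment label names an siRNA and the design text names a Smart Silencer, and the siNC group by its label received siNC. Both were kept in L15 medium with 10% FBS and sampled 48 h after transfection. The line is labelled only as 231, a common short form of MDA-MB-231, a line from an invasive breast cancer. Each group held 1 library of total RNA, so no difference below has a replicate check and none carries a p-value.

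Aminoacyl-tRNA synthetases join each amino acid to its tRNA, the step that sets the genetic code in practice. The cytosolic enzymes serve the ribosomes that translate nuclear mRNAs. The mitochondrial enzymes are also encoded in the nucleus, are imported, and serve the mitochondrial ribosomes that make respiratory chain subunits. Several cytosolic synthetases sit with AIMP1, AIMP2 and EEF1E1 in the multi-tRNA synthetase complex. Under amino acid or endoplasmic reticulum stress the transcription factor ATF4 raises many of the cytosolic genes, acting through the C/EBP-ATF response element. YBX1 encodes YB-1, a cold shock domain protein that binds mRNA and is also known to bind tRNA fragments in breast cancer cells.

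YBX1 was listed at 38.1 FPKM in siYBX1 cells and at 649 FPKM in siNC cells. FPKM is the number of fragments scaled to transcript length and library size, and the depth behind it is unknown because no counts accompany it. The siYBX1 library listed 11678 genes and the siNC library 13017, and the members made up 0.369% of the summed FPKM in siYBX1 cells and 0.374% in siNC cells. Of 10 markers of breast lines, 7 were listed in siYBX1 cells and 8 in siNC cells, VIM and CD44 among them, while ESR1 and PGR were in neither library. Of 15 hepatocyte markers, 1, SERPINA1, was listed in siYBX1 cells, at 40.0 FPKM, and 14 were listed in siNC cells, with a sum of 74.5 FPKM. ALB was missing from the siYBX1 table and stood at 10.4 FPKM in siNC cells, TTR was in neither, and no marker had a value of 0. The part of such cells in the results below was not tested.

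The promoters of several cytosolic members carry the core of the C/EBP-ATF response element, and the windows around each match among the members are shown because this element is the one through which ATF4 acts. The motif searched was TGATGNAA on either strand, in RefSeq promoters of build GRCh38.p14 that run from 250 bases before to 50 bases after the transcript start. Each window of 30 bases reads 5′ to 3′ on the strand of the gene, with the motif in capitals. On the opposite strand the motif reads TTNCATCA.
AARS: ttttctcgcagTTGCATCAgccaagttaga
CARS: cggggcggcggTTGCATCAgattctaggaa
GARS: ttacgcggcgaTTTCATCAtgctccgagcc
IARS: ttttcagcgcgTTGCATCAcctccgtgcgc
MARS: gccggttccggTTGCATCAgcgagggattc
NARS: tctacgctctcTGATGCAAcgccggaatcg
TARS: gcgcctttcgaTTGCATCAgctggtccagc
YARS2: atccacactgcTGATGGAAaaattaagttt

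The windows lie at chr16:70289675-70289704 (AARS, minus strand), chr11:3057407-3057436 (CARS, minus), chr7:30594834-30594863 (GARS, plus), chr9:92293692-92293721 (IARS, minus), chr12:57488053-57488082 (MARS, plus), chr18:57621804-57621833 (NARS, minus), chr5:33440956-33440985 (TARS, plus) and chr12:32756076-32756105 (YARS2, minus). Of the 40 members, 33 matched a promoter entry through the current symbol of their gene identifier. AARS2, DARS, LARS, VARS, VARS2 and YARS were among those that did not. The motif was found for 8 of the 33, against 4.46% of all 27305 genes with a promoter entry and 2.504% of the 8626 compared genes with one. Counted per promoter rather than per gene, the share over all 35116 promoters was 3.62%. The motif was found for 7 of 16 cytosolic synthetases, 1 of 14 mitochondrial synthetases and 0 of 3 scaffolds. In IARS, GARS, MARS, CARS and TARS the motif began between 33 bases before and 3 bases after the start, and in NARS 15 bases after it. AARS and YARS2 carried it farther upstream, from base -187 and base -197. A match is a description of the sequence and not evidence of binding.

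Most members differed little between the libraries. Differences are given as log2(FPKM + 1), siYBX1 minus siNC, and genes were counted at 2-fold (a difference of 1) and at 1.5-fold (0.58). Among 10548 compared genes, 7.20% were higher by 2-fold or more in siYBX1 cells and 5.62% lower by as much. Of the 40 members, 1, YARS2, was higher by 2-fold or more and 0 were lower by as much. At 1.5-fold, 8 members were higher and 2 lower, against 18.3% higher and 16.2% lower of all compared genes, and 30 lay within 1.5-fold, against 65.5% of all. The count of higher members is thus near the background. The median difference was 0.17 over the 40 members and 0.02 over all compared genes. The order of the levels was much the same in both libraries, with Spearman's rho = 0.943 across the 40 members, which share both libraries and are not independent replicates.

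**Figure D1:**
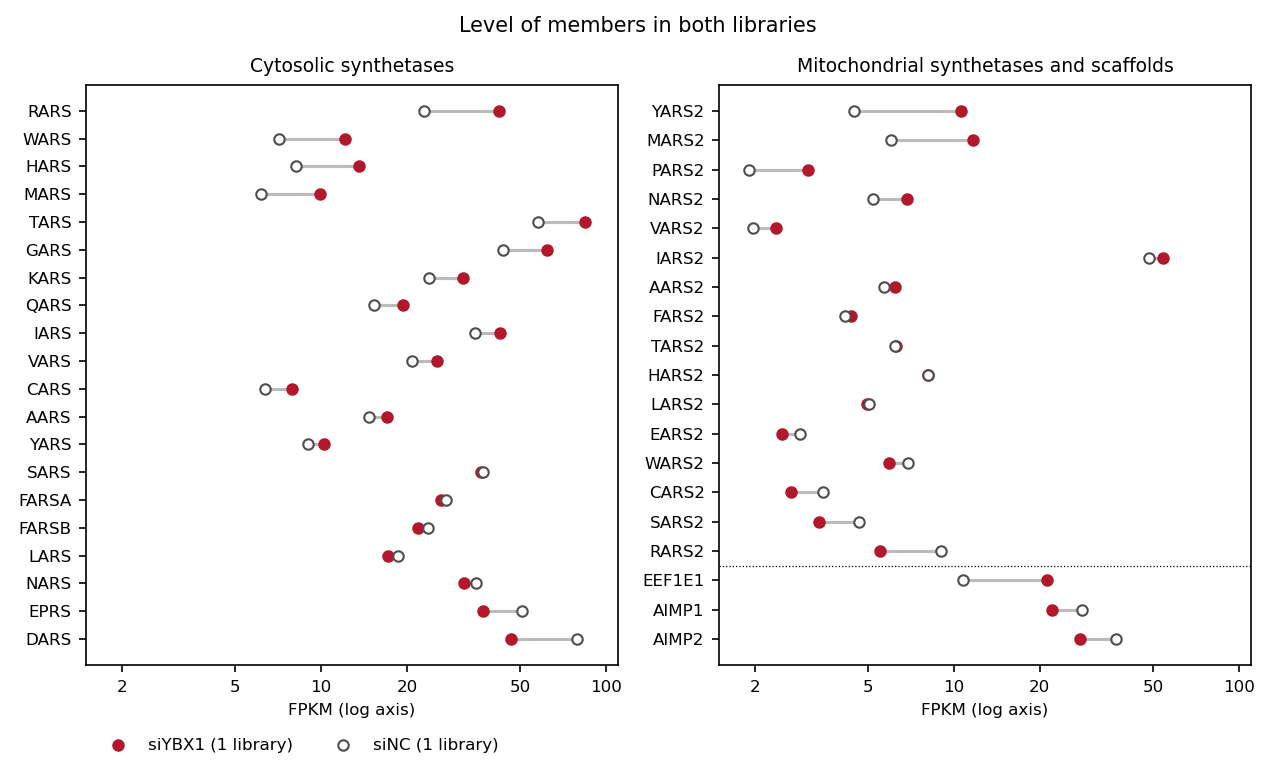
FPKM of 39 of the 40 members on a log axis, with filled points for the siYBX1 library and open points for the siNC library, 1 library each, and genes ordered by difference within the cytosolic set, the mitochondrial set and the scaffolds (below the dotted line). YARS2, at 10.6 FPKM in siYBX1 against 4.47 FPKM in siNC cells, is the widest gap, and DARS, at 46.4 FPKM in siYBX1 against 78.9 FPKM in siNC cells, is the widest in the other direction.

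Among the cytosolic synthetases, 4 were at least 1.5-fold higher in siYBX1 cells and 1 lower, against 18.3% and 16.2% of all compared genes. Another 15 lay within 1.5-fold, and 13 of the 20 differences were above 0, against 51.0% of all compared genes. The median of the 20 was 0.28. RARS, the arginyl-tRNA synthetase, which sits in the complex beside AIMP1, was listed at 42.1 FPKM in siYBX1 cells and at 23.0 FPKM in siNC cells, 1.83-fold higher (log2 difference 0.84). WARS, the tryptophanyl-tRNA synthetase, which is also an interferon-gamma-induced gene, stood at 12.2 FPKM in siYBX1 cells against 7.11 FPKM in siNC cells (0.70). HARS, for histidine, stood at 13.6 FPKM in siYBX1 against 8.16 FPKM in siNC cells (0.67). These were followed by MARS, for methionine, at 9.90 FPKM in siYBX1 cells against 6.16 FPKM in siNC cells (0.61). The MARS gene overlaps DDIT3, a stress-induced transcription factor gene on the opposite strand that was listed at 7.22 FPKM in siYBX1 cells and 2.19 FPKM in siNC cells. Whether counting used strand is not given in the sources used here, so reads in the stretch this pair shares may have been assigned to either gene.

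The next largest positive differences belonged to TARS and GARS, abundant enzymes that did not reach 1.5-fold. TARS, for threonine, was the most abundant member in siYBX1 cells, at 84.3 FPKM against 57.5 FPKM in siNC cells (0.54). GARS, the glycyl-tRNA synthetase of both the cytosol and the mitochondria, stood at 61.8 FPKM in siYBX1 against 43.3 FPKM in siNC cells (0.51). KARS, the lysyl enzyme, likewise serves both compartments and stood at 31.4 FPKM in siYBX1 against 23.8 FPKM in siNC cells (0.38). AARS, the alanyl enzyme, was closer to equality, at 16.997 FPKM in siYBX1 against 14.8 FPKM in siNC cells (0.19). Without GARS and KARS, the cytosolic median was 0.23.

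DARS, the aspartyl-tRNA synthetase, was the most abundant member in siNC cells and the one with the largest negative difference. It was listed at 46.4 FPKM in siYBX1 cells and at 78.9 FPKM in siNC cells, 1.70-fold lower (-0.75). EPRS, the bifunctional enzyme for glutamate and proline, stood at 37.0 FPKM in siYBX1 cells against 50.5 FPKM in siNC cells (-0.44). In immune cells EPRS also joins a complex that silences inflammatory mRNAs after interferon-gamma. The remaining cytosolic members lay closer together: QARS, IARS, VARS, CARS and YARS had differences between 0.17 and 0.32, while SARS, FARSA, FARSB, LARS and NARS lay between -0.01 and -0.13. FARSA and FARSB, the subunits of a single phenylalanyl enzyme, stood at 26.3 and 21.9 FPKM in siYBX1 cells and at 27.5 and 23.8 FPKM in siNC cells. The subunits thus lay close together in each library.

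The mitochondrial synthetases were centred near 0, with a median of 0.06. Of the 17, 3 were at least 1.5-fold higher and 1 lower, against 18.3% and 16.2% of all compared genes, and 13 lay within 1.5-fold. YARS2, the mitochondrial tyrosyl-tRNA synthetase, whose mutations cause a myopathy with sideroblastic anaemia, was listed at 10.6 FPKM in siYBX1 cells and at 4.47 FPKM in siNC cells, 2.36-fold higher (1.08). MARS2, for methionine, stood at 11.7 FPKM in siYBX1 cells against 6.005 FPKM in siNC cells (0.85). PARS2, for proline, was among the lowest members, at 3.07 FPKM in siYBX1 cells and 1.91 FPKM in siNC cells. Its ratio of 1.61 became a difference of 0.48 on the log2(FPKM + 1) scale, which understates differences at low levels.

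On the other side, RARS2, the mitochondrial arginyl enzyme, stood at 5.48 FPKM in siYBX1 cells against 8.98 FPKM in siNC cells, 1.64-fold lower (-0.62). SARS2, for serine, stood at 3.37 FPKM in siYBX1 against 4.65 FPKM in siNC cells (-0.37) and CARS2, for cysteine, at 2.69 FPKM in siYBX1 against 3.47 FPKM in siNC cells (-0.28). HARS2, TARS2, LARS2 and FARS2 were within 0.06 of 0 on the log2 scale. IARS2, for isoleucine, was by far the most abundant mitochondrial synthetase, at 54.1 FPKM in siYBX1 cells and 48.2 FPKM in siNC cells. Some of these values carry an overlap: VARS2 shares exon sequence on the same strand with GTF2H4, which stood at 9.67 FPKM in siYBX1 against 3.06 FPKM in siNC cells, and HARS2 with ZMAT2. The VARS2 values of 2.37 FPKM in siYBX1 cells and 1.98 FPKM in siNC cells are therefore uncertain.

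Set against each other, the cytosolic median lay 0.22 above the mitochondrial median, but the amino acid pairs did not share a direction. With 1 library a group this gap could not be tested. Among 17 pairings of a cytosolic gene with its mitochondrial counterpart (EPRS enters with EARS2 and with PARS2, and FARSA and FARSB both enter with FARS2), the difference was larger for the cytosolic gene in 9 and for the mitochondrial gene in 8. The median gap within pairings, cytosolic minus mitochondrial, was 0.082. In 8 of the 17 both genes lay on the same side of the median of all compared genes. MARS and MARS2 were the one pair in which both genes were at least 1.5-fold higher.

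The 17 pairings parted most at arginine in one sense and at proline in the other. The cytosolic RARS was higher and the mitochondrial RARS2 lower, so that the level of RARS was 7.68 times that of RARS2 in siYBX1 cells and 2.56 times in siNC cells. For proline, EPRS had a negative and PARS2 a positive difference, and the level of EPRS was 12.04 times that of PARS2 in siYBX1 cells and 26.5 times in siNC cells. For tyrosine, YARS stood at 0.974 times the level of YARS2 in siYBX1 cells and at 2.02 times in siNC cells, so their order turned. The cytosolic gene had the higher level in 14 of 17 pairings in siYBX1 cells and in 16 in siNC cells. Over the whole sets, the summed FPKM of the cytosolic genes was 3.78 times that of the mitochondrial genes in siYBX1 cells and 4.02 times in siNC cells.

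**Figure D2:**
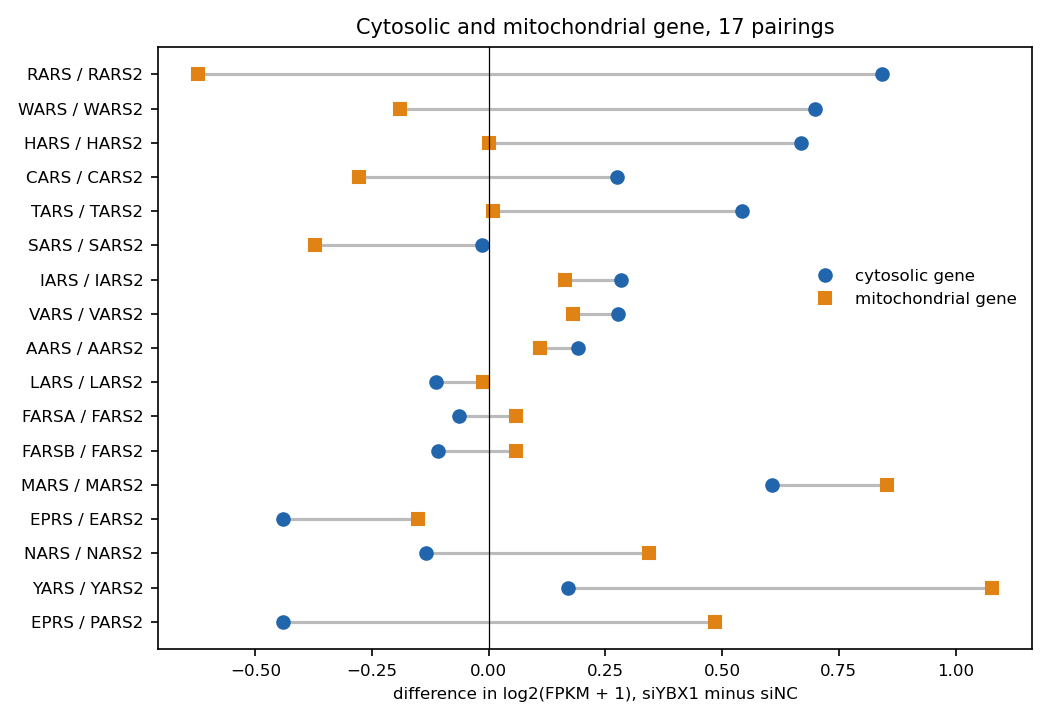
Difference in log2(FPKM + 1), siYBX1 minus siNC, for the cytosolic gene (circles) and the mitochondrial gene (squares) in 17 pairings, ordered by the gap between them. The circle lies to the right in 9 pairings and to the left in 8, with RARS and RARS2 at one end (0.84 and -0.62) and EPRS and PARS2 at the other (-0.44 and 0.48).

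HARS and HARS2 are a special case because they are neighbours that diverge from a short shared stretch of DNA. Between their RefSeq starts lie 84 bases on chromosome 5 of GRCh38.p14, and this sequence, chr5:140691371-140691454, is shown on the strand of HARS2 because both genes are read outward from it.
HARS/HARS2: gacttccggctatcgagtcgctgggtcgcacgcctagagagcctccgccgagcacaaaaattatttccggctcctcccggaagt
G and C made up 59.5% of these bases. HARS was 1.66-fold higher in siYBX1 cells at 13.6 FPKM against 8.16 FPKM in siNC cells, while HARS2 was listed at 8.13 FPKM in both libraries. The level of HARS was 1.67 times that of HARS2 in siYBX1 cells and 1.00 times in siNC cells. GENCODE 29 lets exons of the pair overlap on opposite strands, so some reads may have been assigned to either gene.

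Members of the multi-tRNA synthetase complex differed in direction. Its 8 synthetases and 3 scaffolds had a median difference of 0.28 and a range of -0.75 to 0.92. Of these 11 members, 3 were at least 1.5-fold higher and 1 lower, against 18.3% and 16.2% of all compared genes. The 12 free cytosolic synthetases had a median of 0.23 and a narrower range, -0.13 to 0.70, with 2 at least 1.5-fold higher and 0 lower. Without GARS and KARS the order of these medians turned, to 0.085 for the complex and 0.19 for the free synthetases. The extremes of the cytosolic set, RARS and DARS, both belong to the complex. The summed FPKM of the complex with its scaffolds was 316.5 in siYBX1 cells and 327 in siNC cells, while that of the free synthetases was 349 in siYBX1 cells and 290.2 in siNC cells.

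The scaffolds themselves differed in direction. EEF1E1, also called AIMP3, a small scaffold that binds MARS in the complex, was listed at 21.2 FPKM in siYBX1 cells and at 10.7 FPKM in siNC cells, 1.98-fold higher (0.92). AIMP2, which holds subcomplexes together, stood at 27.6 FPKM in siYBX1 cells against 37.0 FPKM in siNC cells (-0.41). AIMP1, the precursor of a secreted cytokine, stood at 21.99 FPKM in siYBX1 against 28.1 FPKM in siNC cells (-0.34). EEF1E1 was thus the least abundant scaffold in both libraries, and the 3 scaffolds lay closer together in siYBX1 cells, between 21.2 and 27.6 FPKM, than in siNC cells, between 10.7 and 37.0 FPKM. AIMP2 overlaps EIF2AK1, a stress kinase gene on the opposite strand, which stood at 24.1 FPKM in siYBX1 against 34.8 FPKM in siNC cells, so reads may have been shared.

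The 12 cytosolic synthetases described as ATF4-responsive had a median of 0.23 and a range of -0.44 to 0.70. Of these, 2 were at least 1.5-fold higher (WARS and MARS) and 0 lower, against 18.3% and 16.2% of all compared genes. The other 8 had a median of 0.30 and a range of -0.75 to 0.84, with 2 at least 1.5-fold higher (RARS and HARS) and 1 lower (DARS). Of the 12, 10 had a promoter entry, and 7 of these carried the motif shown above, against 0 of 6 among the others. That list and the motif are not independent, since such elements helped to define these genes as ATF4 targets. The 7 cytosolic members with the motif had a median of 0.28 and a range of -0.13 to 0.61, and the 9 without it a median of 0.32 and a range of -0.44 to 0.84. Over all compared genes the medians were 0.08 for 216 genes with the motif and 0.02 for 8410 without it.

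**Figure D3:**
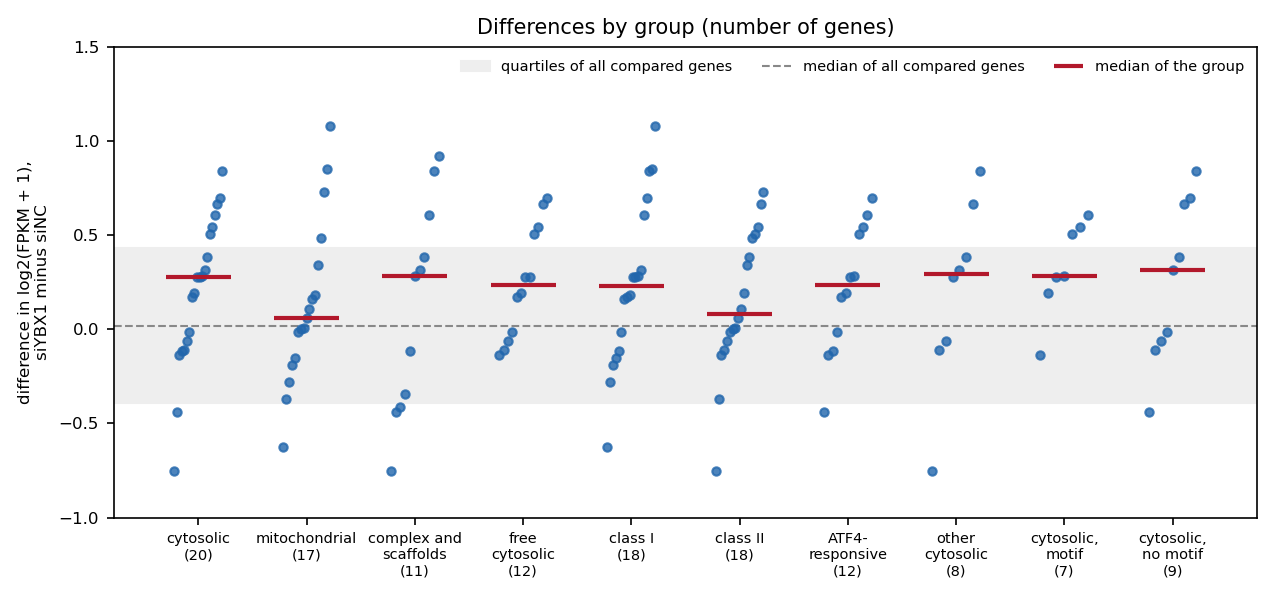
Difference in log2(FPKM + 1), siYBX1 minus siNC, for each gene of the groups named on the x axis, with the number of genes in brackets, a bar at the group median, and the median (0.02) and quartiles of all compared genes as a dashed line and a grey band. Group medians lie between 0.06 and 0.32, and every group spans values on both sides of 0.

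Genes of the stress pathway around the synthetases were mixed. ATF4 itself stood at 56.3 FPKM in siYBX1 cells and 42.4 FPKM in siNC cells (0.40). Of 36 genes listed for the stress kinases, ATF4 and its targets in amino acid supply, 30 were compared, with 4 higher and 3 lower by 2-fold or more, against 7.20% and 5.62% of all compared genes, and a median of 0.04. CEBPB, a partner of ATF4, stood at 40.6 FPKM in siYBX1 against 11.5 FPKM in siNC cells. DDIT3, which ATF4 induces and which overlaps MARS, stood at 7.22 FPKM in siYBX1 against 2.19 FPKM in siNC cells. DDIT4, an inhibitor of mTORC1, stood at 10.5 FPKM in siYBX1 against 51.9 FPKM in siNC cells, and the cystine transporter gene SLC7A11 at 3.68 FPKM in siYBX1 against 13.9 FPKM in siNC cells. XPOT, the exporter of tRNA from the nucleus, which ATF4 also raises, stood at 19.4 FPKM in siYBX1 against 24.8 FPKM in siNC cells (-0.34). The asparagine synthetase gene ASNS, a classical target named here after its values were seen, stood at 2.60 FPKM in siYBX1 against 3.10 FPKM in siNC cells. ASNS and the other genes named do not stand for the whole list. Of the 30 compared, 8 were at least 1.5-fold higher and 4 lower, against 18.3% and 16.2% of all compared genes. A difference above 0 was seen in 17 of the 30, against 51.0% of all.

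WARS was higher alongside several interferon-gamma response genes. Of 14 genes listed, 12 were compared, with 3 at least 2-fold higher, 6 at least 1.5-fold higher and 0 lower by 1.5-fold, against 7.20%, 18.3% and 16.2% of all compared genes. Their median was 0.62, against 0.02 over all, and the list was not tested. HLA-B, an antigen-presenting molecule, stood at 124 FPKM in siYBX1 cells against 60.4 FPKM in siNC cells, and TAP1, which supplies it with peptides, at 21.2 FPKM in siYBX1 against 8.55 FPKM in siNC cells. The immunoproteasome genes PSMB9 and PSMB8 stood at 7.30 FPKM in siYBX1 against 2.02 FPKM in siNC cells and at 35.7 FPKM in siYBX1 against 17.8 FPKM in siNC cells. CXCL10 and IDO1 were in neither library.

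Genes that act on mitochondrial tRNAs after or beside charging had a median difference of -0.06. Of 20 genes, all compared, 1 was at least 2-fold higher and 0 were 2-fold lower, against 7.20% and 5.62% of all compared genes, and 18 lay within 1.5-fold, against 65.5% of all. HSD17B10, a subunit of mitochondrial RNase P that cuts tRNAs out of the primary transcript, stood at 80.8 FPKM in siYBX1 cells against 27.2 FPKM in siNC cells (1.54). PDE12, an exonuclease that trims tails in mitochondria, stood at 4.44 FPKM in siYBX1 against 7.80 FPKM in siNC cells (-0.69). The mitochondrial elongation factor genes TUFM and TSFM stood at 77.2 FPKM in siYBX1 against 99.9 FPKM in siNC cells and at 8.18 FPKM in siYBX1 against 5.91 FPKM in siNC cells. GATB, GATC and QRSL1, which make glutaminyl-tRNA in mitochondria in place of a dedicated synthetase and were named after their values were seen, had differences of -0.18, -0.35 and -0.31.

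Synthetases also fall into class I and class II by the fold of their catalytic domain. The 18 class I members had a median of 0.23 and the 18 class II members a median of 0.08, with EPRS, which joins an enzyme of each class, left out. The gap of 0.14 lay in the cytosolic genes, where the medians were 0.28 for 9 class I and 0.09 for 10 class II genes, whereas in mitochondria they were -0.01 for 9 and 0.08 for 8 genes.

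Coding length moved with the difference over all genes but little over the members. The median difference was 0.27 in the shortest of 10 bins of coding length and -0.35 in the longest. Across the 40 members, Spearman's rho between difference and coding length was 0.067 and between difference and mean level 0.011, as a description of genes that share both libraries. With the trend removed, the cytosolic median was 0.40, against 0.28 without this step, and EPRS, the longest member at 4536 coding bases, stood at -0.10. EEF1E1, the shortest at 522 coding bases, stood at 0.70.

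**Figure D4:**
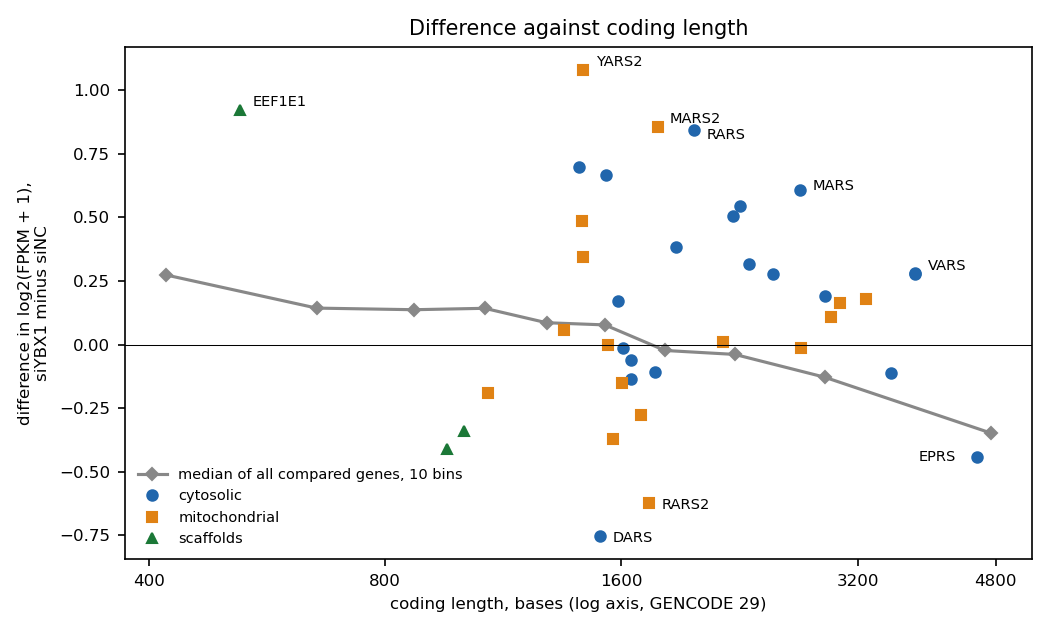
Difference in log2(FPKM + 1), siYBX1 minus siNC, against coding length on a log axis, with circles for cytosolic, squares for mitochondrial and triangles for scaffold members (39 of the 40), and diamonds for the medians of all compared genes in 10 bins. The bin medians run from 0.27 to -0.35, and most long cytosolic members lie above them.

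The scale of the libraries bears on the small differences. The summed FPKM was 222872 in siYBX1 cells and 201233 in siNC cells. With both brought to the same total, the median of all compared genes was -0.11. At the same total, 5 members were at least 1.5-fold higher and 3 lower. No share of all compared genes past 1.5-fold is given for this scale, so these counts have no background. On that scale the mitochondrial median was -0.061, below 0, YARS2 stood at 0.96 and no longer reached 2-fold, and WARS (0.57), HARS (0.54) and MARS (0.48) no longer reached 1.5-fold, while EPRS (-0.59) did so on the lower side. In all, 13 of the 40 members share exon sequence with another listed gene in GENCODE 29. The other 27 had a median of 0.16, with 4 at least 1.5-fold higher and 2 lower, against 18.3% and 16.2% of all compared genes.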

How the data were processed

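Total RNA of 2 libraries, siYBX1 and siNC, was measured by RNA sequencing. For each library the authors deposited FPKM by gene, per the file headers. GRCh37, StringTie 1.3.3, HISAT2 2.1.0 and cutadapt 1.17 appear in the submitters' processing notes, with no role stated. The annotation release, strand handling and filters were not given in the sources used here.

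Values were joined by identifier in Python 3.11.15 with pandas 2.3.3. Differences used log2(FPKM + 1) for genes listed in both tables whose mean reached 1 FPKM. With 1 library per group no test was possible. Depth is unknown, so no counting interval is given. The counting of genes past each fold was tested on simulated data.

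Members and lists were chosen with earlier results of these data known. Named genes were the members, YBX1, ATF4, XPOT, genes sharing a member's locus and, per list, the 4 with the largest difference. Genes named beyond this rule were chosen after their values were seen, among them ASNS, GATB, GATC, QRSL1, CXCL10, IDO1, the markers, DTD1, DTD2, ANKRD16, AARSD1, TARSL2 and RTCB. Promoters came from RefSeq (GRCh38.p14), matched by the current symbol of each gene identifier. Coding length, that of the longest coding transcript, and overlaps came from GENCODE 29 (GRCh38). The length trend was a least-squares B-spline of 5 degrees of freedom (patsy 1.0.2). Alternatives covered the pseudocount, scale, centring, filter, missing genes, read-through genes, members left out and length. Protein sequences were not analysed here. The values and the pairing of 1 member, and the values of a listed gene, are not reported here; counts and medians of the sets include both genes, and those of the pairings do not.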

Additional observations from a re-analysis of the deposited data

How the results depend on the processing

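Without replicates, a median was taken as moved past 0.1 on the log2 scale and a count past 1.5 times. With both libraries at the same total FPKM, 0 members were higher by 2-fold and 5 by 1.5-fold, and the medians were 0.14 for the cytosolic set, -0.061 for the mitochondrial set, 0.14 for the complex with scaffolds, 0.094 for the free synthetases, 0.11 for class I, -0.039 for class II, 0.10 for the ATF4-responsive and 0.16 for the other cytosolic synthetases. This scale shifted the median of all compared genes to -0.11. At a pseudocount of 5, 0 members were 2-fold higher, 4 were 1.5-fold higher and 1 was 1.5-fold lower. For this pseudocount and for the same total FPKM no shares of all compared genes are given, so the counts have no background. With the coding length trend removed, an alternative chosen after seeing the data, the medians were 0.40 (cytosolic), 0.40 (complex), 0.37 (free), 0.39 (class I), 0.37 (ATF4-responsive) and 0.41 (other cytosolic). Without GARS and KARS, the complex median was 0.085. The cytosolic median stayed above the mitochondrial one in every alternative run, by 0.14 to 0.27. Part of this was fixed in advance, since centring shifts both medians alike. Every member was listed in both libraries and passed the filter. Dropping the filter, taking missing genes as 0 and adding read-through genes could therefore change neither the gap nor the sign of a member. The upper quartile scale, a factor of 0.999, hardly changed any value. Over all alternatives run, 21 members kept a difference above 0 and 13 below 0, and 6 (AARS2, FARS2, HARS2, LARS, LARS2 and TARS2) changed sign. Read-through genes named after a member numbered 0, so adding them changed nothing. The planned length correction from a protein table was not run. No paired analysis was possible because each group holds 1 library.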

Other observations

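Of 20 genes that edit, deliver or mature tRNAs in the cytosol, all compared, 4 were higher in siYBX1 cells by 2-fold or more and 1 lower by as much, against 7.20% and 5.62% of all compared genes, with a median of -0.13 and a range of -1.12 to 1.94. YRDC, which makes a modification of tRNAs that read codons starting with A, stood at 30.6 FPKM in siYBX1 cells against 10.97 FPKM in siNC cells. CLP1, an RNA kinase of the tRNA splicing endonuclease complex, stood at 8.45 FPKM in siYBX1 against 2.39 FPKM in siNC cells, while TSEN15, a subunit of that endonuclease, stood at 13.0 FPKM in siYBX1 against 29.4 FPKM in siNC cells. RTCB, the ligase that joins the cut ends of a tRNA after splicing, was also past 2-fold, at 36.9 FPKM in siYBX1 against 17.9 FPKM in siNC cells. EEF1G, a subunit of the exchange factor that recharges the tRNA carrier EEF1A1, stood at 373 FPKM in siYBX1 against 96.8 FPKM in siNC cells, but AP002990.1, a clone-named gene read over the same locus, was lower, at 2.28 FPKM in siYBX1 against 80.3 FPKM in siNC cells, so both values are uncertain.

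A few more genes of this list are given as single values. DTD1 and DTD2, which remove D-amino acids and mischarged residues from tRNAs, stood at 19.0 FPKM in siYBX1 against 33.8 FPKM in siNC cells and at 4.06 FPKM in siYBX1 against 6.58 FPKM in siNC cells. ANKRD16, which binds AARS and limits mischarging with serine in the mouse, stood at 1.71 FPKM in siYBX1 against 3.32 FPKM in siNC cells, and AARSD1, an editing protein for alanyl-tRNA, at 2.30 FPKM in siYBX1 against 3.09 FPKM in siNC cells. TARSL2, a threonyl enzyme whose symbol falls outside the naming rule, stood at 1.89 FPKM in siYBX1 against 2.73 FPKM in siNC cells. These 5 genes, all lower in siYBX1 cells, and RTCB were named after their values were seen and do not stand for the list. Of its 20 genes, 5 were at least 1.5-fold higher and 3 lower, against 18.3% and 16.2% of all compared genes. A difference above 0 was seen in 7 of the 20, against 51.0% of all compared genes.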
